A study of Rattus norvegicus with 4 samples.

Results

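The genes described here are those of the ephrins and their Eph receptors, the semaphorins and their plexin and neuropilin receptors, the Slits and their Robo receptors, and the netrins and their Unc5 receptors, as they were measured in the epithelium around rat teeth and around titanium implants. They were chosen by gene symbol alone, as the platform annotation gives it, and 57 of 14217 measured genes matched. A gene with several probe sets was represented by the one with the highest mean over the 4 arrays, and the 57 genes together had 96 probe sets. Unc50 and Unc5cl matched only through the first letters of their symbols and are not netrin receptors, so the guidance families proper held 55 genes. Other family members, such as Efnb2, Ephb2, Sema7a and Plxnb3, are not analysed here.

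Affymetrix rat arrays were hybridized with RNA from 4 laser-microdissected samples of male Sprague-Dawley rats. The 2 junctional samples were junctional epithelium, by which the gingiva attaches to the tooth surface, and the 2 peri-implant samples were the corresponding epithelium around a titanium alloy implant. The rats were 4 weeks old when their upper left first molar was replaced by the implant, and 20 rats were killed 4 weeks later. All 4 samples carry the same label for tooth extraction and implant placement, and the labels do not say whether an array holds RNA of 1 animal or of several, nor from which teeth the junctional samples came.

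Guidance proteins were first studied in growing axons and also act in epithelia, vessels and immune cells. Ephrins are held to the membrane and signal on contact with Eph receptor tyrosine kinases, in both directions, and in epithelia they take part in cell sorting and adhesion. Secreted class 3 semaphorins bind a neuropilin that pairs with a plexin, whereas most membrane-bound semaphorins bind plexins directly. Secreted Slits bind Robo receptors and secreted netrins bind Unc5 receptors or Dcc, and these pathways converge on the actin cytoskeleton through small GTPases.

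Values are log2 signals, and those of different genes are not set against each other. Among 27 probe sets for bacterial genes with no spike-in named in the labels, signals reached at most 6.42, which serves as the control level, below which a signal cannot be told from background. Of the 57 members, 28 exceeded it on all 4 arrays, 12 on 1 to 3 arrays, and 17 on none. On the 4 arrays 54.6% to 56.8% of probe sets exceeded the control level, and 378 to 729 stood at the floor of 0. The hybridization controls averaged 14.03 on peri-implant replicate 1, above the 13.70 to 13.76 of the other arrays. The keratins Krt5 and Krt14 of basal epithelium stood between 15.73 and 16.23 on every array. Of the 9 marker genes listed for junctional epithelium and the enamel organ, 2 (Ambn and Amelx) were measured, and both lay at or below the control level on all arrays, so they do not show the identity of the junctional samples.

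In peri-implant epithelium the repellent ligand gene Slit2, its receptor gene Robo2 and the semaphorin receptor gene Plxna1 rose, and the secreted semaphorin genes Sema3c and Sema3d, the neuropilin gene Nrp2, the plexin gene Plxnb1 and the Eph receptor gene Ephb4 fell. The largest rise was that of Slit2, at least 3.44-fold, and the largest fall that of Sema3d, 2.78-fold. Of all members, 3 were called as higher, 5 as lower and 49 not at all in limma's moderated test with an intensity trend, with p adjusted over all 14217 genes. The 8 calls are 14.0% of the members, against 12.7% of all genes called, so the share of calls among the members was near that of the array as a whole. Among genes above the control level on all 4 arrays, 7 of 28 members were called, against 17.4% of 8814 genes. Whether these shares differ was not tested. By direction, 7.39% of all genes were higher and 5.34% lower in peri-implant epithelium. The median log2 difference was 0.13 over the members and 0.05 over all genes. With limma's default prior, 0 members and 0% of all genes passed (adjusted p of the 8 members from 0.0898 to 0.263), while 11 members, and 20.1% of all genes, had an unadjusted p under 0.05. When 1 array was left out, 2 to 4 members passed, and Nrp2 was the only 1 of the 8 whose call remained without each of the 4 arrays in turn.

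**Figure D1:**
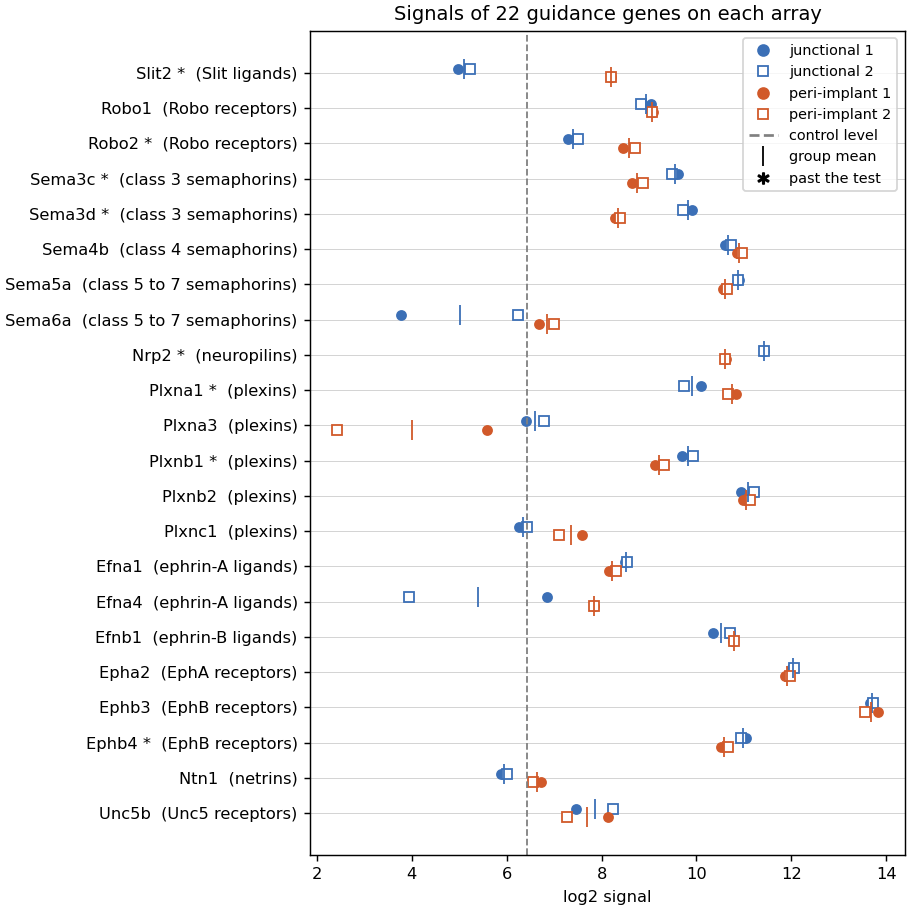
Log2 signal on each array (x axis) of the 22 members named by rule (y axis), with circles for replicate 1, squares for replicate 2, bars for group means and an asterisk for members past the test with an intensity trend. Slit2 lies below the control level (dashed) on both junctional arrays and at 8.20 and 8.21 on the peri-implant arrays, whereas the points of Ephb3 and Plxnb2 overlap.

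The promoters of 43 members were found in RefSeq's table for the rat assembly GRCr8, and the 250 bases before the gene's start are shown for a ligand, a co-receptor and a receptor that changed. Sema3d lies on the minus strand (window chr4:23460972-23461221), Nrp2 on the plus strand (chr9:71617004-71617253) and Robo2 on the minus strand (chr11:26526413-26526662). The windows of Nrp2 and Robo2 overlap the span that the annotation gives their own gene, and the extent of the overlap was not measured. Capitals mark a GC box, a motif bound by Sp factors.
Sema3d: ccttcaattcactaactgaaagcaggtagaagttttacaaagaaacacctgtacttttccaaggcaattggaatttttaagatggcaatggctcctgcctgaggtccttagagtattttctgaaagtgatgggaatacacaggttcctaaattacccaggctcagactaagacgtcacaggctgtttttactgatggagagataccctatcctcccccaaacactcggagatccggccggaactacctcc
Nrp2: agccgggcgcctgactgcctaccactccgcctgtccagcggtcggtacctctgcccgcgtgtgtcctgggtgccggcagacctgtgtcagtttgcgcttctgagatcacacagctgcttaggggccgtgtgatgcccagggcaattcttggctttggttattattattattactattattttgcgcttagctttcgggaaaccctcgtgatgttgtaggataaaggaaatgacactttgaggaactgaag
Robo2: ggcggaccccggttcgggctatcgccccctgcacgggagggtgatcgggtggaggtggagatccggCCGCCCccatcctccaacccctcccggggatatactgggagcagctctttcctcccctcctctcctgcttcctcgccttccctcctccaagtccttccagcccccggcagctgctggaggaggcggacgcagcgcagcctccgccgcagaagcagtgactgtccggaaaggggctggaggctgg
The windows were searched on both strands for an AP-1 site (TGANTCA), a STAT site (TTCNNNGAA) and a GC box (GGGCGG), and on the gene's strand for a TATA box (TATAAA). Robo2 held 1 GC box, which starts 184 bases before the gene's start, and the windows of Sema3d and Nrp2 held no match to any of these letters. A GC box stood in 26 of the 43 member windows (60.5%), against 30.5% of 33469 promoters in the table, and the median GC content was 61.6% in member windows and 51.2% over all. The 33469 promoters were not limited to measured genes or to 1 per gene, as the member windows were. An AP-1 site stood in 1 member window (Epha10) and a STAT site in 1 (Epha3), against 6.34% and 7.67% of all promoters, and a TATA box in 0 member windows, against 8.06% of all promoters.

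Of the Slit ligands and Robo receptors, 1 of each kind rose. Slit2, a secreted repellent that also guides endothelial and immune cells, had signals of 4.98 and 5.24 on the junctional and 8.20 and 8.21 on the peri-implant arrays. Both junctional arrays lay below the control level and both peri-implant arrays well above it. The difference was 3.09 ± 0.39 on the log2 scale (SE, adjusted p = 0.00185), and a fold of at least 3.44 against the control level. The call was lost without peri-implant replicate 1 (adjusted p = 0.0591) or replicate 2 (adjusted p = 0.0613), when the remaining sample is assumed to vary like the others. Slit2 had 2 more probe sets, both at or below the control level on all arrays, of which 1 was higher in peri-implant epithelium (4.86 and 4.52 against 5.56 and 6.05) and the other lower. The mean of all 3 gave a difference of 0.82 (adjusted p = 0.597).

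Robo2, a Slit receptor, rose from 7.30 and 7.49 to 8.46 and 8.71, a 2.28-fold difference in which the groups did not overlap (log2 difference 1.19 ± 0.24 SE, adjusted p = 0.0153). All 3 of its probe sets were higher in peri-implant epithelium, by 1.19, 0.95 and 0.60. With their mean the difference was 0.91 (adjusted p = 0.0908), and the call was lost without any 1 of the 4 arrays (adjusted p from 0.0827 without peri-implant replicate 1 to 0.129 without peri-implant replicate 2). Robo1, the other Slit receptor above the control level, read 9.04 and 8.84 on the junctional and 9.08 and 9.06 on the peri-implant arrays, a difference of 0.13 ± 0.17 (adjusted p = 0.688). Slit3 and Robo3 were at or below the control level on all arrays, and Slit1 exceeded it on 1 peri-implant array only (6.46).

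Of the 7 class 3 semaphorins measured, 2 fell, 5 did not pass and 3 of those 5 were at or below the control level on all arrays. Sema3d, a secreted semaphorin of vessels and nerves, had signals of 9.91 and 9.72 on the junctional and 8.29 and 8.39 on the peri-implant arrays, with no overlap. The difference was -1.48 ± 0.17 (adjusted p = 0.00106), and it did not pass without junctional replicate 1 (adjusted p = 0.053). Sema3c, which is chemotactic for several cell types, fell from 9.61 and 9.48 to 8.65 and 8.87, a 1.73-fold difference (-0.79 ± 0.17, adjusted p = 0.0179). The groups stood apart by more than their own spread, but the call was lost without any 1 of the 4 arrays (adjusted p from 0.0731 without peri-implant replicate 2 to 0.158 without junctional replicate 1). Each of these genes had 1 probe set. Both lie on chromosome 4, where Sema3e and Sema3a stand between them in the GRCr8 annotation. Sema3e and Sema3a were at or below the control level on all arrays. Sema3f did not pass (8.14 and 7.54 against 7.93 and 8.19).

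Nrp2, a co-receptor for class 3 semaphorins and for vascular endothelial growth factors, fell 1.75-fold. Its signals were 11.42 on both junctional arrays and 10.62 and 10.61 on the peri-implant arrays, so that replicates differed far less than the groups did. The difference was -0.81 ± 0.09 (adjusted p = 0.00113), and without 1 array adjusted p stayed under the threshold. The other probe set of Nrp2 read 8.01 and 7.88 on the junctional and 8.23 and 7.76 on the peri-implant arrays, a difference of 0.05, and with the mean of both the gene was not called (-0.38, adjusted p = 0.135). Nrp1, the second neuropilin, read 8.41 and 8.59 against 8.35 and 7.75 (-0.45 ± 0.26, adjusted p = 0.291), and its other probe set pointed the opposite way.

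Among the 8 plexins, 1 rose, 1 fell and 6 did not pass. Plxna1, a signalling receptor for class 3 and class 6 semaphorins, rose from 10.09 and 9.74 to 10.82 and 10.66 (0.83 ± 0.14, adjusted p = 0.00781). Its groups did not overlap, but its 2 dimmer probe sets differed by 0.14 and 0.02 only, and with the mean of all 3 it was not called (0.33, adjusted p = 0.376). The call was also lost without junctional replicate 2, peri-implant replicate 1 or peri-implant replicate 2 (adjusted p = 0.0923, 0.101 and 0.0723). Plxnb1, the receptor for Sema4d, fell from 9.69 and 9.94 to 9.12 and 9.31, or 1.52-fold (-0.60 ± 0.16, adjusted p = 0.0393). All 3 of its probe sets had lower means in peri-implant epithelium (differences of -0.60, -0.45 and -1.99), and their mean was not called (-1.01, adjusted p = 0.183). The Plxnb1 call was lost without any 1 of the 4 arrays (adjusted p from 0.113 without peri-implant replicate 2 to 0.230 without junctional replicate 2).

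The other plexins did not pass. Plxnb2, a widely expressed epithelial plexin, read 10.94 and 11.22 against 10.98 and 11.12, with overlapping groups (-0.03 ± 0.12). Plxnc1, the receptor for Sema7a, read 6.25 and 6.43 on the junctional and 7.59 and 7.10 on the peri-implant arrays (1.00 ± 0.38, adjusted p = 0.12). Its second probe set was lower in peri-implant epithelium (-1.05), and the mean of both differed by -0.023. By its brightest probe set Plxnc1 passed with signals raised to the control level (adjusted p = 0.00113). Plxna3 read 6.41, just below the control level, and 6.79 in junctional epithelium, and 5.59 and 2.43, both below it, in peri-implant epithelium (adjusted p = 0.138). Its second probe set also had a lower mean there (-2.83). Plxna2 and Plxnd1, the latter a plexin of endothelium, had differences of 0.19 and 0.54, and Plxna4 exceeded the control level on 1 array.

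**Figure D2:**
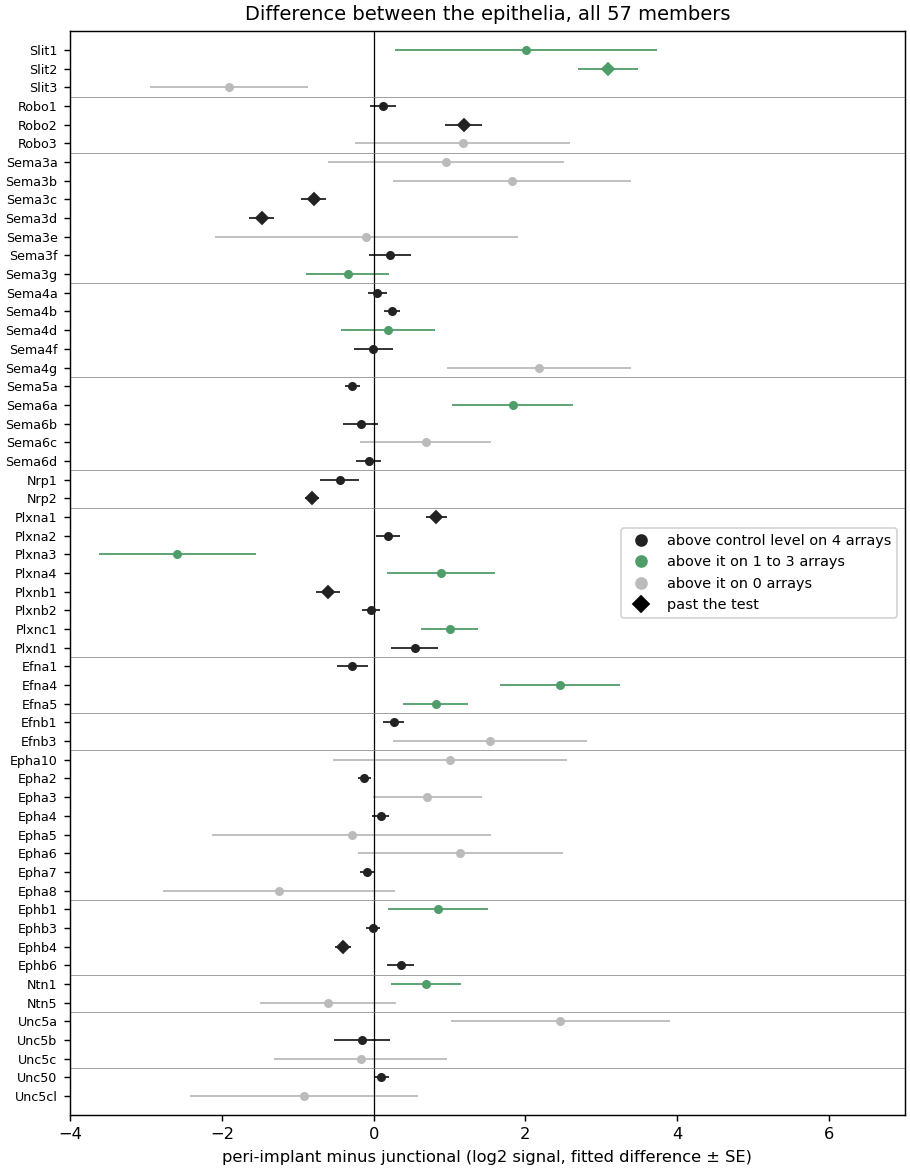
Fitted log2 difference (x axis, peri-implant minus junctional, bars ± SE) of all 57 members (y axis, grouped by family), with diamonds for the 8 members past the test and colour for the number of arrays above the control level. Members at or below the control level on all arrays have wide bars and 0 of them passed, whereas Nrp2, Sema3c and Sema3d lie left of 0 with short bars.

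None of the membrane-bound semaphorins passed the test. Sema4b, the class 4 member with the brightest probe set, read 10.61 and 10.73 on the junctional and 10.85 and 10.96 on the peri-implant arrays (0.24 ± 0.11, adjusted p = 0.179). Sema4a and Sema4f differed by 0.05 and 0.00. Sema4d, the ligand of Plxnb1, exceeded the control level on 1 array of each group. Sema5a, a semaphorin with thrombospondin repeats, read 10.90 and 10.87 against 10.56 and 10.64 (-0.28 ± 0.10, adjusted p = 0.107). All 4 of its probe sets were lower in peri-implant epithelium (differences of -0.28, -0.31, -0.88 and -1.75), and the mean of the 4 passed (-0.81, adjusted p = 0.0201). Sema6a read 3.78 and 6.25, below the control level, in junctional and 6.69 and 7.01 in peri-implant epithelium (adjusted p = 0.169), but 3 of its 5 probe sets pointed the other way. Sema6b and Sema6d differed by -0.17 and -0.07.

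Among Eph receptors, 1 of 12 passed. Ephb4, the receptor of ephrin-B2 best known from veins, fell from 11.04 and 10.95 to 10.51 and 10.66, a 1.32-fold difference without overlap (-0.40 ± 0.11, adjusted p = 0.041). This call was near the threshold and was lost without any 1 of the 4 arrays (adjusted p from 0.0985 without peri-implant replicate 2 to 0.230 without junctional replicate 1) and with arrays centred on their medians (-0.45, adjusted p = 0.0624). Epha2, the main Eph receptor of keratinocytes, read 12.01 and 12.05 on the junctional and 11.86 and 11.97 on the peri-implant arrays (-0.12 ± 0.08, adjusted p = 0.393). Ephb3, a receptor of epithelial progenitor zones in the gut, read 13.67 and 13.72 against 13.82 and 13.55, with overlapping groups (-0.01 ± 0.09). Ephb6, which lacks kinase activity, read 8.68 and 8.91 against 9.05 and 9.26 (0.36 ± 0.18, adjusted p = 0.23). Epha7 and Epha4, by their brightest probe sets, differed by -0.08 and 0.09. Epha3, Epha5, Epha6, Epha8 and Epha10 were at or below the control level on all arrays, and Ephb1 exceeded it on 1 peri-implant array.

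The ephrin ligands had 0 calls among 5 genes. Efnb1, a transmembrane ephrin, read 10.35 and 10.71 on the junctional and 10.78 and 10.80 on the peri-implant arrays (0.26 ± 0.13, adjusted p = 0.232). Efna1, a ligand of Epha2, read 8.48 and 8.53 against 8.15 and 8.30 (-0.28 ± 0.21, adjusted p = 0.417). Its other probe set pointed the opposite way (0.28), and the mean of both differed by -0.0013. Efna4 read 6.84 and 3.94 on the junctional and 7.84 and 7.85 on the peri-implant arrays. Its peri-implant arrays were alike and above both junctional arrays, of which 1 lay below the control level, and the fold was at least 2.32 (2.46 ± 0.79 on the log2 scale, adjusted p = 0.0764). Efna4 passed with signals raised to the control level (adjusted p = 0.0216) and with the replicate number as a block (adjusted p = 0.00686). It also passed among only genes with a group mean above the control level (adjusted p = 0.0385), where its peri-implant arrays alone retained it. It did not pass with quantile normalization (adjusted p = 0.107) or with arrays centred on their medians (adjusted p = 0.0571). Its difference was 3.91 without junctional replicate 1, when only the reading of 3.94 is left in that group, and 1.00 without junctional replicate 2. Efna5 read 5.86 and 6.36 against 6.82 and 7.03 (adjusted p = 0.255), and Efnb3 was at or below the control level on all arrays.

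Netrin and Unc5 genes were near or below the control level for the most part. Ntn1, the secreted guidance cue netrin-1, read 5.87 and 6.01 on the junctional and 6.72 and 6.56 on the peri-implant arrays (0.70 ± 0.46, adjusted p = 0.369). Unc5b, a netrin receptor of endothelium and other cells, read 7.47 and 8.24 against 8.13 and 7.26, with overlapping groups (-0.16 ± 0.37). Its dimmer probe set read 8.29 and 7.97 against 6.62 and 7.13 and passed the test over probe sets (-1.25 ± 0.31, adjusted p = 0.0358). Ntn5, Unc5a, Unc5c and Unc5cl were at or below the control level on all arrays. Unc50, which is not a guidance receptor, differed by 0.10 ± 0.10. Sema3g, the last member not given above, exceeded the control level on 1 junctional array. Sema3a, Sema3b, Sema3e, Sema4g and Sema6c did so on none, and the signals of all 17 such members ran from 0 to 6.32.

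In total 34 members (59.6%) had groups that did not overlap, against 56.3% of all genes. Peri-implant signals were the higher in 20 members (35.1% of 57, against 31.2% of all genes) and the lower in 14 (24.6%, against 25.2%). Of these members, 7 also differed by at least 1 on the log2 scale as measured, with a group mean above the control level (12.3%, against 7.84% of all genes). With dimmer arrays raised to the control level, 4 of the 7 were at least 2-fold apart, namely Slit2, Robo2, Sema3d and Efna4 (7.02% of members, against 4.84% of all genes). The other 3 have dimmer readings below the control level, and their folds were at least 1.89 for Plxnc1 and 1.34 for Sema6a, which were higher in peri-implant epithelium, and at least 1.13 for Plxna3, which was lower.

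**Figure D3:**
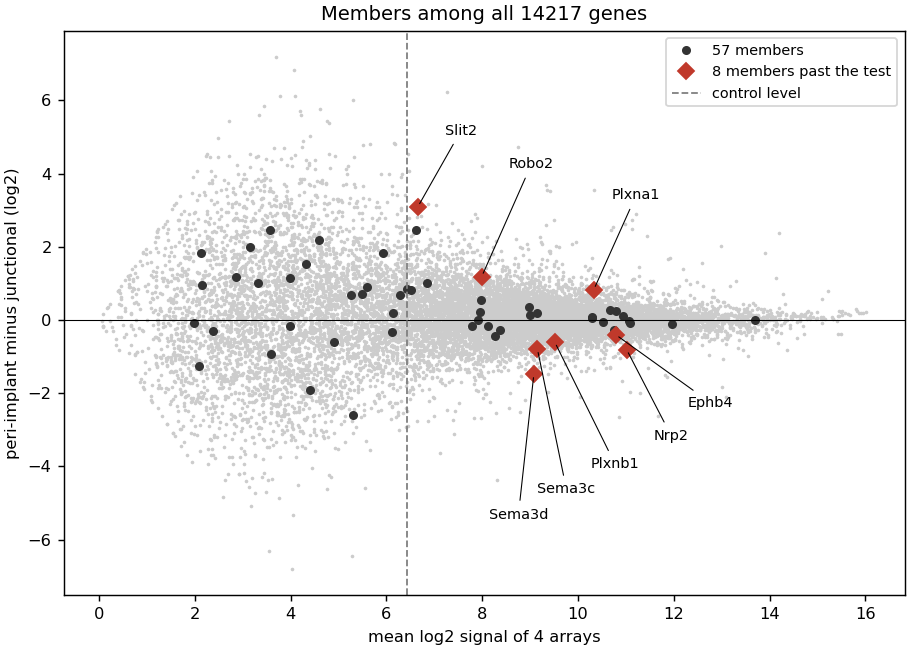
Difference (y axis, peri-implant minus junctional, log2) against the mean log2 signal of 4 arrays (x axis) for all 14217 genes (grey), the 57 members (black) and the 8 members past the test (red). Differences spread widely left of the control level (dashed), and Slit2 is the only red point with a mean near it.

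Probe sets of a gene can cover different parts of its transcripts, and each of the 96 was therefore also tested by itself, a step added after the data were seen. Of them, 15 passed (15.6%, against 8.9% of all 31042 probe sets), and 7 of the 15 were not the brightest of their gene. The 31042 are an unlike set, since they include 9780 probe sets without a gene symbol and 436 with several. Those 7 belong to Epha4, Sema5a, Epha7, Efna5 and Unc5b, whose brightest probe set did not pass. Efna5, a ligand of EphA receptors, read 5.42 and 5.61 on the junctional and 7.50 and 7.09 on the peri-implant arrays by its second probe set (1.78 ± 0.44, adjusted p = 0.0361), so both of its probe sets were higher there.

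**Figure D4:**
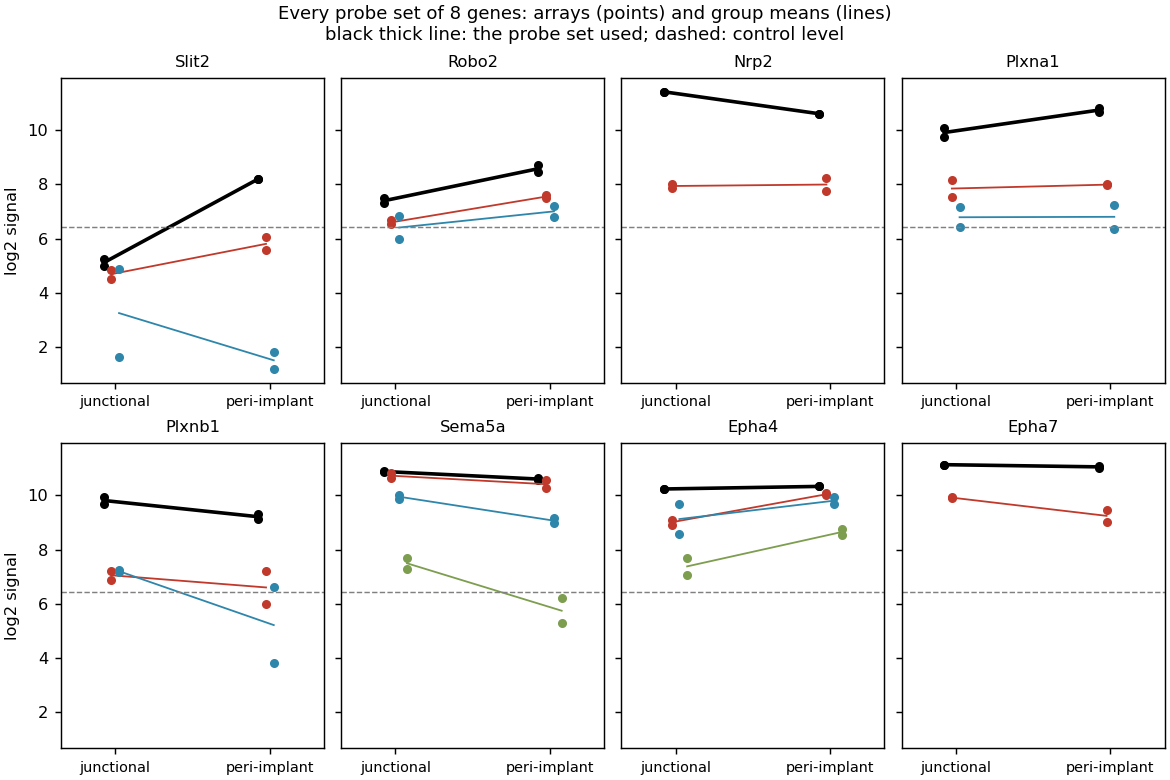
Log2 signal (y axis) of every probe set of 8 genes in junctional and peri-implant epithelium (x axis), with points for arrays and lines joining group means, the thick black line being the probe set used. The lines of Robo2 all rise and those of Sema5a all fall, while the brightest probe set of Epha4 is flat above 3 that rise.

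Among other genes of these pathways, some regulators of small GTPases and of actin were higher and others lower in peri-implant epithelium. Of 76 listed co-receptors, other ligands and signalling partners, 69 were measured, 7 rose, 5 fell and 57 did not pass, a share of 17.4% called against 12.7% of all genes. The list's median difference was 0.14, against 0.05 over all genes. Tiam1, an activator of Rac, rose from 9.69 and 9.51 to 10.48 and 10.68 (0.98 ± 0.13, adjusted p = 0.0025). Pak1, a kinase activated by Rac and Cdc42, rose from 8.31 and 7.51 to 8.85 and 9.07 (adjusted p = 0.0407). Enah, an actin filament elongation factor, rose by 0.61 and Vegfa, a ligand of neuropilins, by 0.42. Dpysl3, a cytosolic mediator of semaphorin signalling, rose from 0.74 and 5.50, both below the control level, to a mean of 7.89 ± 0.16 (SD, n = 2), at least 2.77-fold (adjusted p = 0.044 in limma's test).

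In the opposite direction, Arhgef12, a guanine nucleotide exchange factor that binds B-class plexins, fell from 10.88 and 11.05 to 9.97 and 10.19 (-0.88 ± 0.12, adjusted p = 0.00293). Met, the receptor of hepatocyte growth factor, which associates with B-class plexins, fell from 9.24 and 9.35 to 8.63 and 8.44 (adjusted p = 0.0242). Flrt2, a membrane ligand of Unc5 receptors, fell by 0.72, Pdzrn3 by 0.53 and Vav2, an exchange factor that binds Eph receptors, by 0.49. The other 2 genes that rose, Vav3 and Vasp, lie outside the naming rule and were named after their values were seen (0.38 each). The netrin receptors Dcc and Neo1 did not pass. Dcc was at or below the control level on all arrays, and Neo1 read 8.78 and 8.51 against 8.91 and 8.53. With limma's default prior 0 of the list's genes passed, and 1 to 3 passed when 1 array was left out.

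Fewer cells of a type and less RNA per cell cannot be told apart in these samples, and markers of other cell types were present in both groups. Of 12 measured endothelial markers, 0 rose and 2 (Egfl7 and Plvap) fell, and their summed signal, as log2, was 11.80 and 12.03 on the junctional and 11.55 and 11.42 on the peri-implant arrays. Kdr, a receptor of endothelium, read 9.60 and 9.77 against 9.74 and 9.52, and Cldn5 and Erg were at or below the control level on all arrays. Of 11 fibroblast markers 3 rose and 1 fell, with sums of 15.54 and 15.55 against 15.76 and 15.77. Of 9 pericyte and smooth muscle markers 1 rose and 1 fell, with sums of 12.04 and 12.07 against 12.26 and 12.36. Of 13 nerve and Schwann cell markers 2 (Cnp and Uchl1) rose, with sums of 10.44 and 10.51 against 11.07 and 10.96. The sum was carried by Cnp (9.41 and 9.73 against 10.64 and 10.45), while the list's median difference was -0.56 and Pmp22, Ngfr, Mbp and Tubb3 had differences of -1.47, -2.34, -0.56 and -0.34, none past the test. The defining markers Sox10 and S100b were at or below the control level on all arrays, as were Mag, Prph, Nefl and Nefm.

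Macrophage and dendritic cell markers rose in 6 and fell in 2 of 15, with summed signals of 12.87 and 12.74 on the junctional and 13.52 and 13.58 on the peri-implant arrays. Neutrophil markers rose in 5 of 7, with sums of 15.30 and 15.31 against 16.69 and 16.49. These sums were mostly S100a8 and S100a9, and which cells of the captured tissue gave the signal of these 2 genes was not tested. Cxcr2, Csf3r and Fcgr3a also rose, while Mmp9 did not pass and Mmp8 was at or below the control level on all arrays. Of 10 keratinizing epithelium markers 2 rose and 5 fell, with sums of 16.47 and 16.48 against 16.39 and 16.26. That sum was mostly Krt13, which did not pass (0.23), whereas the list's median difference was -1.34, and Kprp, Lce1f, Krt10 and Loricrin, genes of the cornified layers, fell by 4.37, 2.68, 2.63 and 2.11 on the log2 scale. In addition, 2 of 15 basal and general epithelial markers rose and 2 fell. T and NK cell markers rose in 1 of 12, and B and plasma cell markers in 0 of 5, all of which were at or below the control level. Of 3 Langerhans cell markers 1 rose, and of 6 bone cell markers 2 rose and 1 fell. The part of these cell types in the differences of the guidance genes was not tested.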

How the data were processed

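Log2 signals were deposited by the authors for 31099 probe sets; the authors' software is not stated in the labels. Every array has the same mean linear signal (500.19 after trimming 2% at each end), and linear values were floored at 1. Per the labels' protocols, RNA was amplified with the Ovation system before labelling, which can distort relative levels. After leaving out 57 control probe sets, 20826 probe sets carried 1 gene symbol, 436 several and 9780 none. Groups and replicate numbers came from the titles, and all 4 arrays were used without further normalization.

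The peri-implant minus junctional difference was fitted by limma 3.58.1 in R 4.3.3 (lmFit, then eBayes with a robust prior that follows the mean signal, called an intensity trend here, because the spread depends on signal), two-sided, with Benjamini-Hochberg adjustment over 14217 genes and a threshold of 0.05. Adjusted p and SE come from this fit unless stated, and rose or fell means past it. The number of arrays limits the precision. The labels do not say that replicates came from separate animals, so p-values measure the spread between these samples, which may be technical. A fold is brighter over dimmer, with dimmer arrays raised to the control level; where that was needed it is given as "at least". The fit was tested on simulated data.

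Members and lists were chosen with earlier results of these data known. Named were members past the test, those at least 1 apart on the log2 scale as measured, without overlap and with a group mean above the control level, and the member of each family with the highest mean; of the other pathway genes, up to 10 past the test by size. Alternatives were the default prior, a prior without robustness, quantile normalization, centring, a floor, an offset of 50, a filter on low signal, the mean of probe sets, a replicate block and leaving out each array. Same-numbered arrays did not deviate together (r = 0.02 over genes), and nothing in the labels pairs them.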

Additional observations from a re-analysis of the deposited data

How the results depend on the processing

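The direction of the 8 called members held under every alternative run, but most of these could not have turned it. Their groups did not overlap, so leaving out 1 array, a floor or an offset cannot turn the sign. The other priors, the filter, the replicate block and the fit by probe set leave the difference itself unchanged. Only quantile normalization, centring and the mean of probe sets could have turned a sign. All 8 calls were kept without the robust prior, with quantile normalization and with signals raised to the control level. They were also kept with an offset of 50 and with the filter on low signal, which Slit2 passed only through its peri-implant arrays. Signals raised to the control level gave 10 members, with Efna4 and Plxnc1 added, and this setting removes the spread below that level. The filter gave 9 members, with Efna4 added, a gene that was retained only through its peri-implant arrays. The probe sets used for the 8 passed when every probe set was fitted by itself, but that fit takes the same signals of the same probe sets. The other probe sets of these genes did not pass it. With limma's default prior 0 genes passed (2861 at an unadjusted p under 0.05), and with it 0 members, 0 pathway genes and 0 markers. Leaving out 1 array gave 241 to 398 genes, 2 to 4 members, 1 to 3 pathway genes and 13 to 20 markers, against 1810 genes, 8 members, 12 pathway genes and 39 markers with all arrays. The probe set fit called 2762 of 31042 probe sets. The mean of all probe sets of a gene gave 5 members, but only 3 of the 8 calls were kept. Those 3 (Ephb4, Sema3c and Sema3d) have 1 probe set each, so this setting leaves their signals unchanged. The calls of Nrp2, Plxna1, Plxnb1, Robo2 and Slit2 were lost, and Epha4 and Sema5a were added. With the replicate number as a block 9 members passed, the added 1 being Efna4, and no other member's call changed; same-numbered arrays share only a number.

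The members' median difference was 0.13 with all arrays, and it was 0 with signals raised to the control level, 0.072 with the filter on low signal, 0.19 without Unc50 and Unc5cl and 0.20 without peri-implant replicate 1; leaving out 1 array gave 0.083 to 0.20. The mean of probe sets turned the sign of 6 of the 49 members that were not called, Plxnc1 (-0.023) and Sema6a (-0.28) among the named ones, and raising signals to the control level turned 1. Leaving out 1 array turned the sign of 19 of the 49 (7 of the 21 above the control level on all arrays), and among the named ones of Ephb3 (from -0.15 to 0.12), Plxnb2 (from -0.17 to 0.11) and Unc5b (from -0.59 to 0.28). Signals at or below the control level on all arrays limit what can be said of 17 members. Another 12, Slit2 and Efna4 among them, exceeded it on 1 to 3 arrays only and are limited too.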

Other observations

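Epha4, an Eph receptor that binds ephrins of both classes, had 4 probe sets that differed in what they showed, and this was noticed after the values were seen. Its brightest probe set read 10.24 on both junctional and 10.34 and 10.33 on the peri-implant arrays, a difference of 0.09. Another read 9.10 and 8.92 on the junctional and 10.01 and 10.08 on the peri-implant arrays, and passed the test over probe sets (1.03 ± 0.15, adjusted p = 0.00327). Yet another read 7.69 and 7.07 against 8.77 and 8.53 and also passed (1.27 ± 0.28, adjusted p = 0.022), and the remaining 1 read 8.59 and 9.67 against 9.94 and 9.67 (adjusted p = 0.184). With the mean of the 4 probe sets Epha4 was called as higher in peri-implant epithelium.

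Epha7, another EphA receptor, showed a similar split in the other direction. The probe set used read 11.13 and 11.14 on the junctional and 11.10 and 11.01 on the peri-implant arrays, whereas its dimmer probe set fell from 9.91 and 9.93 to 9.03 and 9.46 (-0.67 ± 0.17, adjusted p = 0.0386 over probe sets). Which transcripts each probe set detects was not tested.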
